A study of Mus musculus with 16 samples.

Results

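The tumour necrosis factor (TNF) superfamily was described across 6 sorted mouse lymphocyte populations, as 40 genes of the 8251 that a single-symbol probe set named on the arrays. Members were all probe sets with 1 gene symbol beginning with Tnfsf, Tnfrsf, Traf or Tnfaip, together with Tnf, Lta, Ltb, Ltbr, Fas, Cd27, Cd40, Cd40lg, Cd70, Tradd, Fadd, Casp8 and Cflar. They comprised 10 ligands, 15 receptors, 9 adaptors and 6 TNF-induced (Tnfaip) genes. Between them they had 49 probe sets, and each gene was represented by the probe set with the highest mean log2 intensity over the 16 arrays. Ripk1, Traf3 and Traf7 were not analysed here.

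Each innate-like population was set against an adaptive one, with 1 array per sample. Wild-type C57BL/6 spleen gave NKT cells sorted as CD3+CD4+NK1.1+ (NKT, n = 3) and CD4 T cells sorted as CD3+CD4+NK1.1- (CD4T, n = 3). Cells from RTOC (a culture, its abbreviation as labelled) were sorted as TCRb+CD8a+CD8b- after selection with 10 mM of the agonist Smcy (CD8aaT, n = 3) and as TCRb+CD8a+CD8b+ after selection with 100 nM (CD8abT, n = 3), doses as the labels write them. Wild-type C57BL/6 mice also gave peritoneal B1 cells, IgM(hi)IgD(int)CD11b+ (B1, n = 2), and splenic B2 cells, IgM(int)IgD(hi)CD11b- (B2, n = 2). Agonist dose and co-receptor type cannot be told apart in the RTOC pair, nor tissue and B cell type in the B cell pair. Ages, sexes, the number of animals and the strain of the RTOC cells are not stated in the labels.

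TNF superfamily ligands are trimers, mostly on the cell surface, that cluster their receptors. Receptors with a death domain, such as Fas and Tnfrsf1a, recruit the adaptors Fadd and Tradd and can activate caspase-8. Most others bind TRAF adaptors directly and signal to NF-kappaB and MAP kinases. In lymphocytes the family is known for costimulation (Cd27, Tnfrsf4, Tnfrsf9, Tnfrsf18), for T cell help to B cells (Cd40lg and Cd40) and for building lymphoid organs (Lta, Ltb, Tnfsf11).

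The values are the deposited intensities, which the submitters made with RMA, and a difference is a difference of mean log2 intensities with its standard error from limma. A call is a Benjamini-Hochberg adjusted p under 0.05 over 12422 probe sets. Array medians were 50.0 to 53.3 in NKT and 49.6 to 54.1 in CD4T, 30.4 to 31.8 in CD8aaT and 30.9 to 31.8 in CD8abT, and 69.3 to 75.7 in B1 and 73.8 to 76.2 in B2, so levels were compared within pairs. The T cell marker Cd3e was at 94.4 to 101 on B cell arrays and at 159 to 425 on T cell arrays, and the B cell marker Cd79b at 2857 to 5202 on B cell arrays and at 52.8 to 500.0 on T cell arrays. Cd8b1 was at 31.7 to 49.3 in CD8aaT against 1043 to 2704 in CD8abT. Replicate 1 of NKT and of CD4T stood apart from replicates 2 and 3: the SD of log2 differences to them was 0.383 to 0.384 in NKT and 0.562 to 0.634 in CD4T, against 0.126 and 0.162 between replicates 2 and 3. Its 18S ribosomal RNA control was at 675 in NKT and 1326 in CD4T, against 52.7 to 59.2 on the other arrays of these groups. The 18S signal was also raised in replicate 1 of the B cells, at 776 in B1 and 877 in B2 against 33.4 and 62.6 in replicate 2, and it was 66.5, 273 and 249 in CD8aaT against 129, 857 and 716 in CD8abT. The part of this signal in the results was not tested. A level in sorted cells cannot tell fewer positive cells from less RNA per cell.

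NKT cells had more Tnfrsf18, the costimulatory receptor GITR, and less Tnfaip8l1 than CD4T cells. CD8aaT cells had more Tnfsf11, the cytokine RANKL, than CD8abT cells. B1 cells had less Cd40, the receptor through which B cells take T cell help, and less of the adaptor Traf5 than B2 cells. In fits with other settings or arrays, the Tnfrsf18 call was kept in 24 of 24 and that of Tnfaip8l1 in 19 of 23. The Tnfsf11 call, near the threshold, was kept in 7 of 24, that of Cd40 in 16 of 24 and that of Traf5 in 12 of 24. These calls were 2 of 40 members in NKT minus CD4T, where 1.63% of all probe sets were called, 1 of 40 in CD8aaT minus CD8abT, where 0.185% were, and 2 of 40 in B1 minus B2, where 1.14% were. A difference within 0.5 on the log2 scale was found for 35 of 40 members (87.5%) in the NKT and in the CD8aaT comparison and for 33 of 40 (82.5%) in the B1 comparison, against 94.5%, 93.2% and 93.5% of all probe sets. With the replicate number as a block, the counts were 5 of 40 (4.84% of all probe sets) in NKT minus CD4T and 3 of 40 (3.2%) in CD8aaT minus CD8abT. Without replicate 1 of every group, calls over all probe sets rose. They went from 202 to 356 in NKT minus CD4T and from 23 to 190 in CD8aaT minus CD8abT. Of the 40 members, 5 and 4 were called there. Ltb (0.48, limma adjusted p = 0.0496), Tnfrsf1b (0.73, adjusted p = 0.039) and Traf5 were added in NKT minus CD4T. Tnfrsf18, Cd27 (-0.68, adjusted p = 0.048) and Tnfaip8 (0.89, adjusted p = 0.042) were added in CD8aaT minus CD8abT.

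**Figure D1:**
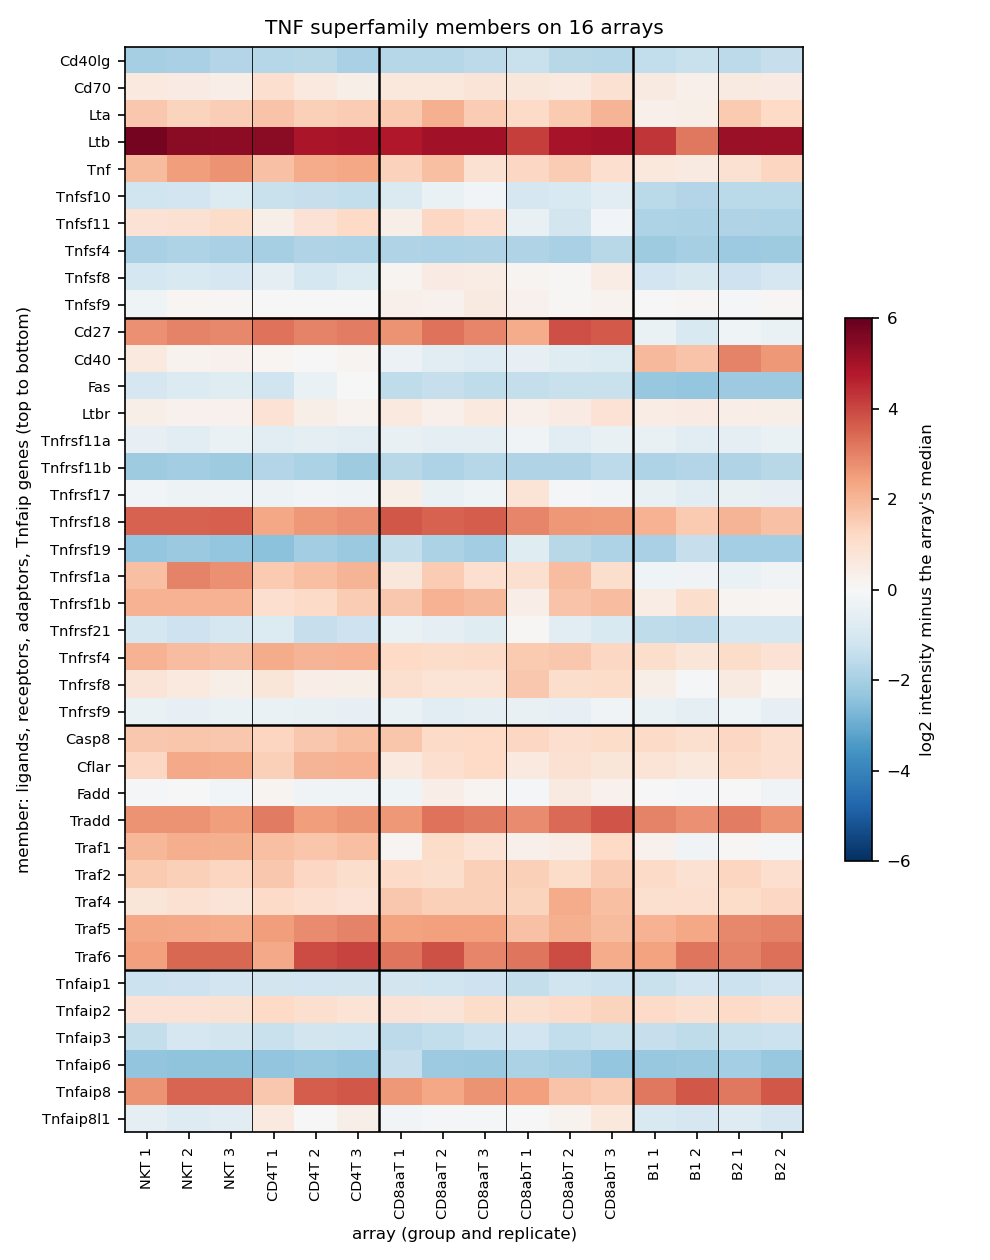
Log2 intensity of the 40 members minus the median of the array, by array (columns, grouped by population) and member (rows, grouped by role), in colour. Ltb is red on every array and palest in B1 replicate 2, Cd27 is red on T cell arrays and pale blue on B cell arrays, and Cd40 is red on B cell arrays.

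**Figure D2:**
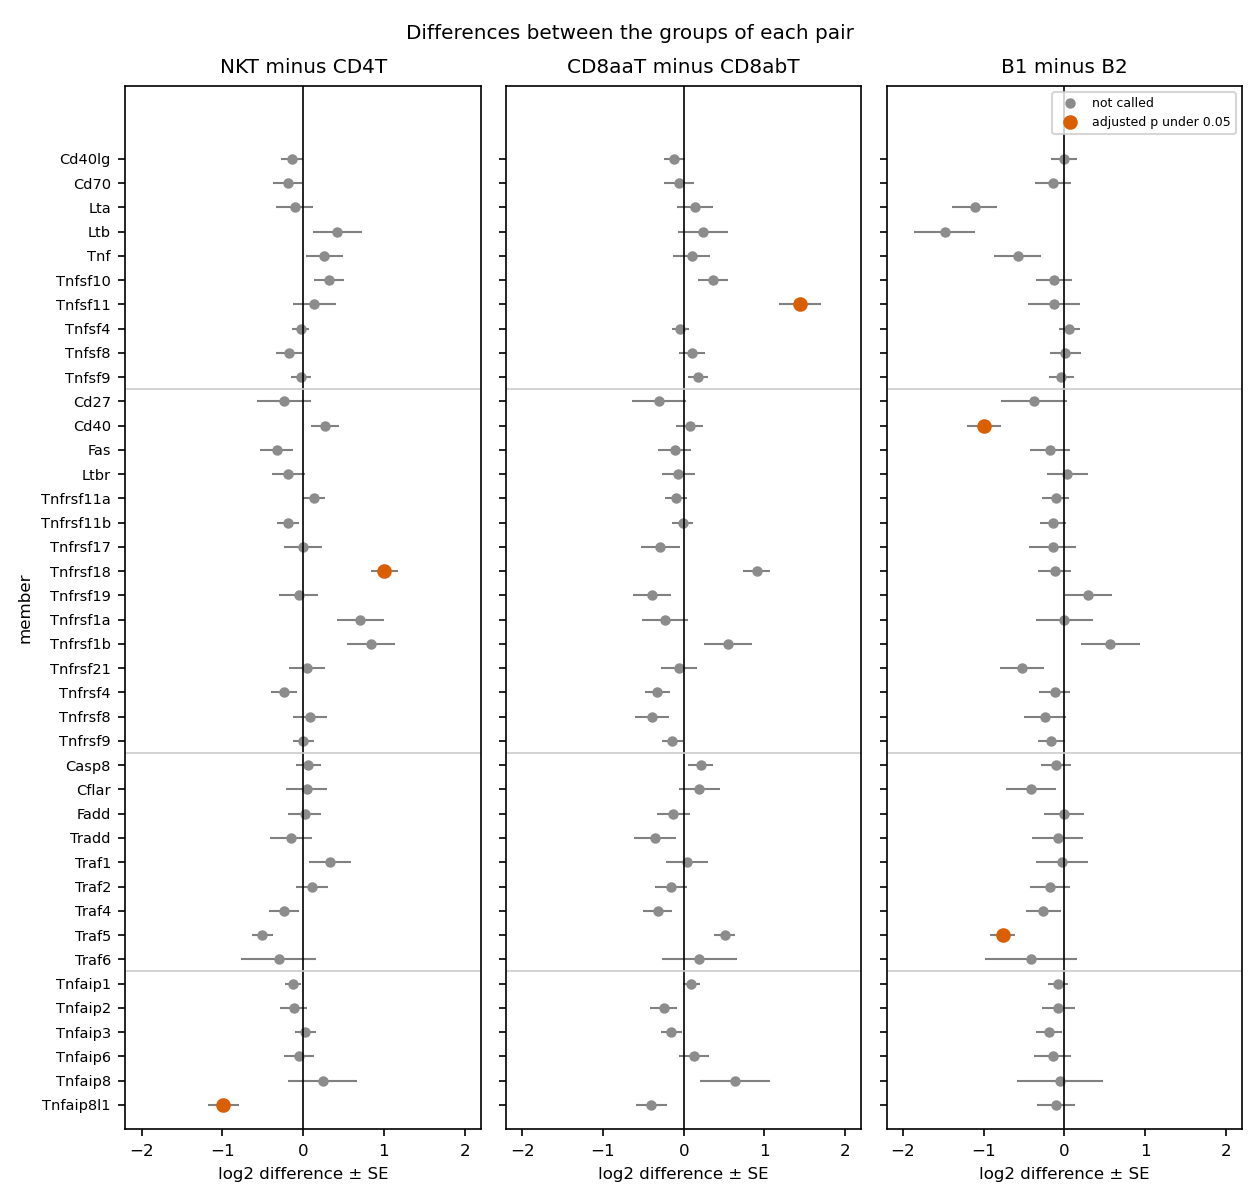
Log2 difference (horizontal axis) with its standard error for each of the 40 members (vertical axis, by role), in NKT minus CD4T, CD8aaT minus CD8abT and B1 minus B2. Orange points have an adjusted p under 0.05: 2, 1 and 2 members in the 3 panels.

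Of the 10 ligands, 1 was called, Tnfsf11. Tnfsf11 is known for driving osteoclast formation and the maturation of medullary thymic epithelium. Its intensity was 39.1, 73.1 and 63.7 in CD8aaT cells, against 22.7, 14.2 and 28.3 in CD8abT cells. The groups did not overlap, and the difference was 1.44 ± 0.26, a 2.71-fold higher level (limma, adjusted p = 0.0495, and 0.013 with the replicate block). It was 96.9, 95.4 and 106 in NKT and 69.5, 92.7 and 114 in CD4T cells, where the groups overlapped (0.14 ± 0.26), and stood at 18.5 to 22.1 on the B cell arrays. The 5′ to 3′ balance of the RNA was read from the beta-actin and Gapdh controls. The beta-actin control's 3′ signal divided by its 5′ signal was 5.80, 5.76 and 5.15 in CD8aaT and 6.57, 11.6 and 7.92 in CD8abT, without overlap. The same ratio for Gapdh was 20.9, 17.6 and 7.37 in CD8aaT and 24.0, 30.4 and 9.47 in CD8abT, with overlap. With the beta-actin ratio as a covariate the Tnfsf11 difference was 1.09 (limma, adjusted p = 0.42). With 32 added to each intensity before log2 it was 0.74 (adjusted p = 0.16). Without replicate 1 of every group it was 1.77 (adjusted p = 0.039). Of the 16 fits that left out 1 array, 3 kept the call, those without CD4T replicate 1, CD8abT replicate 3 or CD8aaT replicate 1, and adjusted p over all alternatives reached 0.55. Summed NK cell markers were 662 to 933 in CD8aaT against 151 to 338 in CD8abT, and 1 of 4, Klrd1, was called higher. Klrd1 made up most of the sum in CD8aaT, at 566, 599 and 865, against 72.2, 153 and 271 in CD8abT. The other markers were not called: Gzma differed by 0.18, Ncr1 by -0.05 and Prf1 by -0.10. The part of these markers in the result was not tested.

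Lymphotoxin genes had the largest differences of the family between the B cell populations, short of the threshold. Ltb anchors lymphotoxin at the membrane, where it joins Lta to form the ligand of Ltbr. Ltb was at 1488 and 615 in B1 cells and at 2789.5 and 2562 in B2 cells, a difference of -1.48 ± 0.38 (2.79-fold lower in B1, limma adjusted p = 0.11). Lta was at 94.2 and 88.5 in B1 cells and 227 and 171 in B2 cells (-1.11 ± 0.28, 2.16-fold lower, adjusted p = 0.10). B1 lay below B2 on every array for both, and the B1 replicates lay far from each other in Ltb. Tnf, the inflammatory cytokine of the family, was at 117 and 99.3 in B1 against 143 and 181 in B2 cells (-0.58 ± 0.29, adjusted p = 1.00). A dimmer probe set of Lta gave -0.14. The Ltb difference was -0.84 without B1 replicate 2 and -2.12 without B1 replicate 1. Lta was called without CD8abT replicate 1 or 3 (limma adjusted p = 0.046 and 0.038). Without replicate 1 of every group, the Ltb difference was -2.06 and that of Lta -0.95, each from 1 B1 and 1 B2 array. Leaving out a B1 or B2 array leaves 1 in its group, which is then assumed to vary like the other groups. Ltb, Tnf and Lta lie next to each other on chromosome 17, with 0 coding genes between them in the RefSeq table. In NKT cells Ltb was at 2849, 2149 and 2089, against 2301, 1509 and 1521 in CD4T cells, with overlapping groups (0.43 ± 0.31, and 0.28 without NKT replicate 1), and Lta and Tnf differed there by -0.11 and 0.26.

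The 250 bases before the start of the ligand genes are shown because the lymphotoxin genes are neighbours and Tnfsf11 is the called ligand. All promoters printed here are from RefSeq on build GRCm38.p6, written 5′ to 3′ on the gene's strand. Capitals mark matches to GGGCGG, the GC box, or to TATAA, the TATA-like word, each searched on both strands.
Tnfsf11, chr14:78308044-78308293, minus strand: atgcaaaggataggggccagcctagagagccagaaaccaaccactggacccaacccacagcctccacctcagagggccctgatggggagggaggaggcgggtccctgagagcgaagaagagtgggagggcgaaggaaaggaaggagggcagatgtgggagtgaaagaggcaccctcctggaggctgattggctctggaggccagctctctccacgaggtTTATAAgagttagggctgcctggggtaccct
Ltb, chr17:35194257-35194506, plus strand: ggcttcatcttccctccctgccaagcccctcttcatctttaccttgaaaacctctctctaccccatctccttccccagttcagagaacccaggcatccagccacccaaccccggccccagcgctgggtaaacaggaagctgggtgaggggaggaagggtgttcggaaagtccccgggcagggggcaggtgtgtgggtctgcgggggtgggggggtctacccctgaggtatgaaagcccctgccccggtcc
Lta, chr17:35205352-35205601, minus strand: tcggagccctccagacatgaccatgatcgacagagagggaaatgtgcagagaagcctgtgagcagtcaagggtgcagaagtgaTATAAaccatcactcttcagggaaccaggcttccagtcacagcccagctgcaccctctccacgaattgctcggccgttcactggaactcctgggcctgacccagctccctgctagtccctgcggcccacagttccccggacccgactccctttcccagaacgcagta
Tnfsf11 held TATAA 31 and 30 bases before the start, on opposite strands and overlapping, Lta held it 167 bases before, and Ltb held neither word. Over all 32851 promoters of the table, 22.8% held TATAA and 32.7% held GGGCGG in such a window. Of the 35 promoters of the 32 members in the table, 7 held TATAA and 18 (51.4%) held GGGCGG. The NF-kappaB consensus was found in 5.0% of all promoters, in 8.57% of the members' promoters and in 0 of the 6 printed here. These are matches of letters and say nothing of binding.

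The other ligands were not called. Tnfsf10, the death ligand TRAIL, was at 23.6, 22.5 and 28.2 in NKT cells and 21.8, 19.6 and 18.0 in CD4T cells, without overlap (0.32 ± 0.18, adjusted p = 1.00). In CD8aaT cells it was at 16.7, 23.1 and 28.4, against 15.5, 16.4 and 20.2 in CD8abT cells, with overlap (0.36 ± 0.18, and 0.57 and 0.19 without CD8aaT replicate 1 or 3). Cd70, the ligand of Cd27, and Cd40lg, Tnfsf4, Tnfsf8 and Tnfsf9, the ligands of Cd40, Tnfrsf4, Tnfrsf8 and Tnfrsf9, ranged from -0.19 to 0.18 over all 3 comparisons. Cd40lg, Tnfsf4 and Tnfsf10 were among the 12 members whose group means lay below the array median in all 6 groups. RMA compresses differences at such dim levels.

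**Figure D3:**
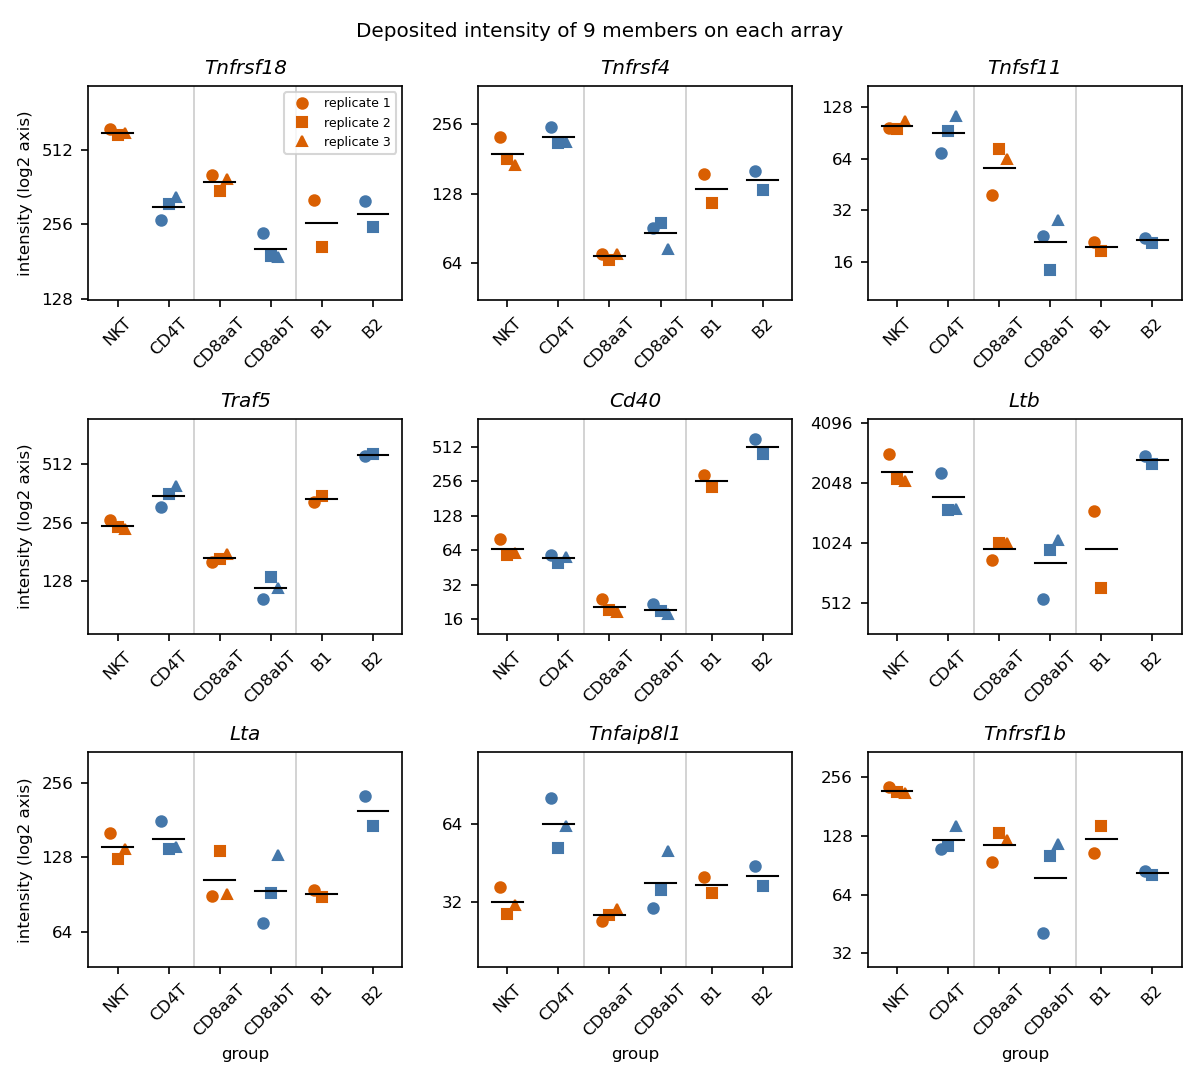
Deposited intensity (vertical axis, log2 scale) of 9 members on each array, by group (horizontal axis), with a bar at the mean of log2 values; symbols give the replicate number, orange the innate-like and blue the adaptive groups. Tnfrsf18 is higher in NKT than in CD4T and in CD8aaT than in CD8abT on every array, while Tnfrsf4 is not, and Traf5 is below its partner in NKT and B1 and above it in CD8aaT.

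Among the 15 receptors, Tnfrsf18 was called in NKT cells and Cd40 in B1 cells. Tnfrsf18, or GITR, is known on regulatory and activated T cells. It was at 622, 589 and 600.4 in NKT cells, against 268, 309 and 330.2 in CD4T cells, so that every NKT array was above every CD4T array. The difference was 1.00 ± 0.17, 2.01-fold (limma, adjusted p = 0.0045), and the call was kept in 24 of 24 alternatives, with adjusted p from 0.00030 to 0.025. Without replicate 1 of every group the difference was 0.90 (adjusted p = 0.0042). In CD8aaT cells it was at 405, 351 and 391, against 237, 190.0 and 188 in CD8abT cells, again without overlap. That difference of 0.90 ± 0.17, 1.87-fold, missed the threshold (adjusted p = 0.0505) and passed it with the replicate block (adjusted p = 0.0033) and without replicate 1 of every group (0.97, adjusted p = 0.010). With the beta-actin ratio as a covariate it was 0.80 (adjusted p = 0.42). B1 cells had 321 and 208 and B2 cells 317 and 249, with overlapping values (-0.12 ± 0.20). The difference in the B cell pair minus that in the NKT pair was -1.12 ± 0.26 (adjusted p = 0.058), and the CD8 pair minus the NKT pair was -0.10 ± 0.24.

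The gene next to Tnfrsf18 on chromosome 4 is Tnfrsf4, the costimulatory receptor OX40, with 0 coding genes between them. Tnfrsf4 was at 225, 180.4 and 169.9 in NKT cells and at 249.6, 212 and 214 in CD4T cells, which overlapped (-0.24 ± 0.16, adjusted p = 1.00). It was at 70.5, 66.3 and 70.1 in CD8aaT cells and at 90.8, 95.8 and 74.2 in CD8abT cells, lower in CD8aaT on every array (-0.33 ± 0.16, adjusted p = 0.84). The point estimates of these neighbours thus had opposite signs in both T cell pairs. Their upstream windows, with the same marking, are shown for that reason.
Tnfrsf18, chr4:156026072-156026321, plus strand: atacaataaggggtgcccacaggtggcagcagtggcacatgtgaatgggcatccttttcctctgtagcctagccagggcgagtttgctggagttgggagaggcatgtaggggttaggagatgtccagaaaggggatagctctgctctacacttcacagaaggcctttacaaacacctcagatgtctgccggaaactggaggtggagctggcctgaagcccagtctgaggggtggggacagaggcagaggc
Tnfrsf4, chr4:156013445-156013694, plus strand: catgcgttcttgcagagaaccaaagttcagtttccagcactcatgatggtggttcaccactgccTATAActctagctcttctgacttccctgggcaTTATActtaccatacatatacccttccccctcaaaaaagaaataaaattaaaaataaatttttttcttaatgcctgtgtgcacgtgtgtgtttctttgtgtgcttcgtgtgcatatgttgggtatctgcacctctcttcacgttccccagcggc
Tnfrsf4 held TATAA 186 and 154 bases before its start, and Tnfrsf18 held neither word.

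The TNF receptors Tnfrsf1a and Tnfrsf1b were higher in NKT cells by point estimate. Tnfrsf1b, which lacks a death domain, was at 228, 213 and 211 in NKT cells, against 110.1, 114 and 144 in CD4T cells. The groups did not overlap (0.84 ± 0.30, adjusted p = 0.38, and 0.031 with the replicate block and 0.013 without CD8abT replicate 1). It was at 94.2, 132 and 121 in CD8aaT cells, against 40.8, 101 and 116 in CD8abT cells. That difference of 0.55 ± 0.30 was not called, and it was 0.08 without CD8abT replicate 1, the lowest of the 6 arrays. It was at 105 and 144 in B1 cells against 84.7 and 81.0 in B2 cells, higher in B1 on every array (0.57 ± 0.37, not called, and 0.34 without B1 replicate 2). Tnfrsf1a, the receptor that recruits Tradd, was at 189, 398 and 337 in NKT and at 161, 177 and 203 in CD4T cells (0.71 ± 0.29, adjusted p = 0.57, and 0.023 with the block). NKT replicate 1 overlapped the CD4T arrays, and a dimmer probe set of Tnfrsf1a gave -0.25. Of 10 macrophage markers, 2 were called higher in NKT, Lyz2 and Csf1r. In all, 8 of the 10 lay above 0, and C1qb (-0.15) and Cd14 (-0.03) lay below. The summed intensity of the list was 510 to 640 in NKT against 369 to 516 in CD4T, with overlap. Lyz2 was at 136, 83.0 and 77.4 in NKT against 29.8, 20.6 and 18.7 in CD4T. NK cell markers summed to 742 to 1143 in NKT and 220 to 282 in CD4T, with 2 of 4 called. Their part in the receptor differences was not tested.

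Cd40 was at 292 and 227 in B1 cells, against 595 and 442 in B2 cells. B1 was lower on every array, with a difference of -0.99 ± 0.21, 1.99-fold lower (limma, adjusted p = 0.032). The call held in 16 of 24 alternatives, with adjusted p up to 0.50. It was lost with the arrays of the pair alone and without CD4T replicate 2 or 3, NKT replicate 3, CD8abT replicate 2, B2 replicate 1 or 2, or B1 replicate 2. It was lower on all T cell arrays, at 80.4, 58.2 and 60.9 in NKT and 58.4, 50.0 and 55.4 in CD4T cells and at 17.9 to 24.0 in the RTOC cells. The difference in the B cell pair minus that in the NKT pair was -1.27 ± 0.27 (adjusted p = 0.030), the only member called in that test, where 1.35% of all probe sets were. Of 8 B cell markers, 2 were called lower in B1, Cd22 and Ighd, Ighd being a gene of the sort gate. Another 2 lay above 0 in B1, Ighm (0.54), also a gene of the gate, and Ms4a1 (0.30), neither called. Summed T cell markers were 2558 to 2955 in B1 against 1304 to 1847 in B2, with 0 of 10 called and a median difference of -0.08. Of the 10, 2 lay above 0 in B1, Cd2 and Cd5, and Cd2 made up most of the sum, at 2340 and 1962 in B1 against 1178 and 689.7 in B2 (1.25 ± 0.29, adjusted p = 0.064). Summed macrophage markers were 700 to 875 in B1 against 609 to 631 in B2. Of the 10, Lyz2 alone was called, at 233 and 89.5 in B1 against 39.1 and 22.2 in B2. In all, 6 lay above 0 in B1, while C1qa, C1qb, Cd14 and Csf1r lay below. Itgam, the CD11b gene of the gate, differed by 0.0072. The part of these marker lists in the Cd40 difference was not tested.

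No other receptor was called. Fas, the death receptor, was at 26.8, 28.7 and 30.2 in NKT cells and 23.7, 38.1 and 50.6 in CD4T cells (-0.33 ± 0.20, adjusted p = 1.00), with overlap. Leaving out 1 array moved that difference to -0.62 without CD4T replicate 1, where it was called (adjusted p = 0.030), and to -0.08 without CD4T replicate 3. Cd27, a costimulatory receptor of naive T cells, was at 58.0 and 36.5 in B1 cells and 64.1 and 55.9 in B2 cells (-0.38 ± 0.41, and -0.71 and -0.05 without B1 replicate 1 or 2). In NKT cells Cd27 was at 362, 395 and 375, below every CD4T array (521, 403 and 418), a difference of -0.24 ± 0.33 that was not called. In CD8aaT cells it was at 199, 297 and 246, against 146, 457 and 410.3 in CD8abT cells (-0.31 ± 0.33), and the difference was -0.83 without CD8abT replicate 1 and -0.01 without CD8abT replicate 2, neither called. Tnfrsf21, the death-domain receptor DR6, was at 26.5 and 23.5 in B1 and 36.3 and 35.3 in B2 cells (-0.52 ± 0.27, adjusted p = 1.00). In CD8aaT minus CD8abT, Tnfrsf19, known as TROY, and Tnfrsf8, or CD30, each differed by -0.39, with SE of 0.24 and 0.21. Tnfrsf19 was at 11.4, 8.28 and 7.47 in CD8aaT cells, against 18.5, 9.92 and 8.68 in CD8abT cells, with overlap, and its difference was -0.06 without CD8abT replicate 1, the highest array. For Tnfrsf8 the arrays did not overlap, and its difference was -0.22 without CD8abT replicate 1. Tnfrsf9 (4-1BB), Tnfrsf11a (RANK), its decoy Tnfrsf11b, Ltbr and Tnfrsf17 (BCMA) ranged between -0.29 and 0.13 over all 3 comparisons.

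Of the 9 adaptors, Traf5 was called in B1 cells and in the test across pairs. Traf5 is a TRAF protein that Cd27, Tnfrsf4, Cd40 and Ltbr are known to bind. It was at 264, 242 and 237 in NKT cells, against 307, 359 and 393 in CD4T cells. It was at 161, 167 and 177 in CD8aaT cells, against 104, 134 and 119 in CD8abT cells. It was at 326 and 349 in B1 cells, against 565 and 578 in B2 cells. The groups did not overlap in any pair, with Traf5 lower in NKT and B1 and higher in CD8aaT. The differences were -0.51 ± 0.13 in NKT (adjusted p = 0.076, and 0.031 with the replicate block), 0.51 ± 0.13 in CD8aaT (0.24, and 0.046 with the block) and -0.76 ± 0.16 in B1 (1.69-fold lower, adjusted p = 0.027). The test that the 3 differences are equal called 1 of 40 members, Traf5 (limma F test, adjusted p = 0.0046), against 1.63% of all probe sets. With the replicate block it called 7 of 40, against 5.76%. That block also pairs B1 with B2 arrays, by numbers not taken to pair these samples. The CD8 difference minus the NKT difference was 1.01 ± 0.18 (adjusted p = 0.018; 0.692% of all probe sets called), and the B cell difference minus the CD8 difference was -1.27 ± 0.20 (adjusted p = 0.0078; 0.733%). The B cell difference minus the NKT difference was -0.26 ± 0.20 (adjusted p = 1.00). The B1 call held in 12 of 24 alternatives. It was lost with array centring, the filter on dim probe sets, limma-trend and the arrays of the pair alone, and without CD4T replicate 2, NKT replicate 2 or 3, or any single B1 or B2 array, with adjusted p up to 0.24 over all alternatives. Without replicate 1 of every group, the B1 difference was -0.73, from 1 B1 and 1 B2 array, and the NKT difference -0.65 (adjusted p = 0.023).

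The upstream window of Traf5 is shown as that of the adaptor whose differences opposed each other.
Traf5, chr1:192092600-192092849, minus strand: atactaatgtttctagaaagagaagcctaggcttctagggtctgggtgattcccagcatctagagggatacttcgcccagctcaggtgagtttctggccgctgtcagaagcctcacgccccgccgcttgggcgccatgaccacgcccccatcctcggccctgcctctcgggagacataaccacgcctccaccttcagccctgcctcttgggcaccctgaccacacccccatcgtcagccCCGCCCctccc
It held GGGCGG once, 11 bases before the start, on the opposite strand, and no TATAA.

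The other adaptors were not called. Traf1, a TRAF induced by NF-kappaB, was at 211, 223 and 221 in NKT cells and 187, 161 and 170.5 in CD4T cells, higher in NKT on every array (0.34 ± 0.26, adjusted p = 1.00). Traf6, which also serves Toll-like and interleukin-1 receptors, was at 294, 542 and 554 in NKT and 266, 769.7 and 812 in CD4T cells (-0.30 ± 0.46, and from -0.83 to -0.0047 with single arrays left out). Its low value in each group was replicate 1, the array with raised 18S signal. Traf6 in B1 was at 397 and 637, against 609 and 736 in B2 (-0.41 ± 0.57, and -0.07 and -0.75 without B1 replicate 1 or 2). Cflar, the inhibitor of caspase-8 activation, was at 135 and 106 in B1 and 170.4 and 148 in B2 cells (-0.41 ± 0.31, adjusted p = 1.00), without overlap, and the difference was -0.24 without B1 replicate 2. Tradd differed by -0.35 ± 0.26 in CD8aaT minus CD8abT, with overlapping arrays (185, 295 and 275 against 220.5, 325 and 433), and by -0.61 without CD8abT replicate 1. Traf2 and Traf4 ranged from -0.32 to 0.11 over the 3 comparisons. Fadd, which links death receptors to caspase-8, and Casp8 ranged from -0.13 to 0.21.

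Tnfaip8l1, a member of the Tnfaip8 family of lipid-binding proteins, was at 36.5, 29.0 and 31.3 in NKT cells and at 80.0, 51.8 and 62.8 in CD4T cells. All NKT arrays were lower, with a difference of -0.99 ± 0.19, 1.99-fold lower (limma, adjusted p = 0.013), and -0.92 without replicate 1 of every group (adjusted p = 0.040). With 32 added to each intensity before log2 the difference was -0.58 (adjusted p = 0.017). The call held in 19 of 23 alternatives and was lost without CD4T replicate 3, NKT replicate 2 or NKT replicate 3 and with the 6 arrays of the pair alone, where adjusted p reached 0.087. In CD8aaT it was at 27.2, 28.7 and 30.1, against 30.3, 35.8 and 50.1 in CD8abT, lower on every array as well (-0.40 ± 0.19, adjusted p = 0.83, and -0.20 without CD8abT replicate 3). Tnfaip8 itself, a regulator of cell survival, was at 185, 152 and 209 in CD8aaT and 169, 100.4 and 92.8 in CD8abT cells (0.63 ± 0.43, adjusted p = 0.89), with CD8abT replicate 1 inside the CD8aaT range. In NKT and CD4T its replicate 1 values of 348 and 165 lay far under the 563 to 652 of replicates 2 and 3. Tnfaip3, the ubiquitin-editing inhibitor of NF-kappaB known as A20, and Tnfaip1, Tnfaip2 and Tnfaip6 ranged between -0.25 and 0.13. Tnfaip1, Tnfaip3 and Tnfaip6 lay below the array median in all 6 groups.

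In B1 minus B2, 34 of 40 members had a difference below 0, as did 62.8% of all probe sets. The median was -0.13 for the members and -0.05 for all probe sets. After centring each array on its median, 30 of 40 members were below 0, with medians of -0.08 for the members and -0.0022 for all probe sets. The medians of the members were -0.02 in NKT minus CD4T and -0.05 in CD8aaT minus CD8abT, against -0.03 and -0.05 for all probe sets. Groups did not overlap for 8 of 40 members in the NKT pair (12.2% of all probe sets), for 6 of 40 in the CD8 pair (11.3%) and for 15 of 40 in the B cell pair (32.3%), where 2 arrays face 2. In the NKT pair these were Tnfrsf18, Tnfrsf1b, Tnfsf10 and Traf1, higher in NKT, and Cd27, Tnfaip1, Tnfaip8l1 and Traf5, lower. In the CD8 pair they were Tnfrsf18, Tnfsf11 and Traf5, higher in CD8aaT, and Tnfaip8l1, Tnfrsf4 and Tnfrsf8, lower. In the B cell pair Tnfrsf1b, Tnfrsf19 and Tnfsf4 were higher in B1, and Cd40, Cflar, Fas, Lta, Ltb, Tnf, Tnfaip1, Tnfaip3, Tnfrsf11b, Tnfrsf21, Traf4 and Traf5 lower. Tnfrsf18, Traf5 and Tnfaip8l1 were thus separated in both T cell pairs, and Traf5 in all 3 pairs. The share of all probe sets separated in both T cell pairs, or in all 3 pairs, was not computed. By role, 12 of 15 receptors and 3 of 10 ligands lay below 0 in CD8aaT minus CD8abT, where 60.8% of all probe sets did.

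Genes that act downstream of the receptors were read from lists outside the member rule. The NF-kappaB list had 24 of 30 genes measured, and 1 was called, Relb, in NKT cells. Relb is the subunit of the alternative NF-kappaB pathway that Ltbr, Cd40 and Tnfsf11 signalling is known to use. Its intensity was 300.1, 246 and 258 in NKT cells, against 157, 127 and 121 in CD4T cells, without overlap (0.99 ± 0.19, 1.99-fold, limma adjusted p = 0.013). The list had 0 of 24 called in CD8aaT and in B1, and its medians were 0.04, -0.01 and -0.07 in NKT, CD8aaT and B1. With the replicate block, Map3k8 was also called in NKT cells and Tab2 in CD8aaT cells. The death list had 14 of 18 genes measured, and Fasl, the ligand of Fas, was called higher in NKT cells. Fasl is a family ligand whose symbol the member rule does not take in. It was at 963, 619.8 and 599 in NKT and 117, 82.4 and 87.8 in CD4T cells (2.91 ± 0.19, 7.49-fold, adjusted p = 4.6e-07). In CD8aaT it was at 19.1, 23.0 and 23.9, against 15.4, 15.1 and 17.1 in CD8abT, higher on every array (0.47 ± 0.19, adjusted p = 0.74, and 0.039 with the block). No other gene of the death list was called in any pair, and its medians were 0.05, 0.02 and -0.10.

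Between cell types, levels were described on intensities centred on each array's median, with no test. B and T cell arrays did not overlap for 10 of 40 members (9.89% of all probe sets). On the 4 B cell arrays, 1 member, Cd40, lay above all 12 T cell arrays (4.06% of all probe sets did), and 9 lay below all of them (5.84%). The widest gap was that of Cd27, -2.49 on the log2 scale from its lowest T cell array to its highest B cell array. The same gap was -0.91 for Tnfrsf1a, -0.66 for Tnfsf11, -0.64 for Fas and -0.22 for Tnfrsf18. It was -0.14 for Tnfsf10, and Tnfrsf17, Tnfrsf4 and Tnfaip8l1 were separated by less than that. Cd40 was separated by 1.12 the other way. After quantile normalization 1 member was again above (4.84% of all probe sets) and 9 below (5.43%), with Tnfsf8 in and Tnfrsf4 out. Without centring, where B cell arrays are brighter throughout, 12 members were above (49.9% of all probe sets) and Cd27 alone was below (0.523%). For Fas, the array carries a second, control probe set that read the other way: it was at 1824 and 791 in B1 and at 2336 and 1566 in B2, against 18.4 to 63.0 on T cell arrays, while the probe set used was at 13.7 to 16.7 on B cell arrays and at 10.6 to 50.6 on T cell arrays. The level of Fas in B cells relative to T cells is therefore not settled by these arrays.

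**Figure D4:**
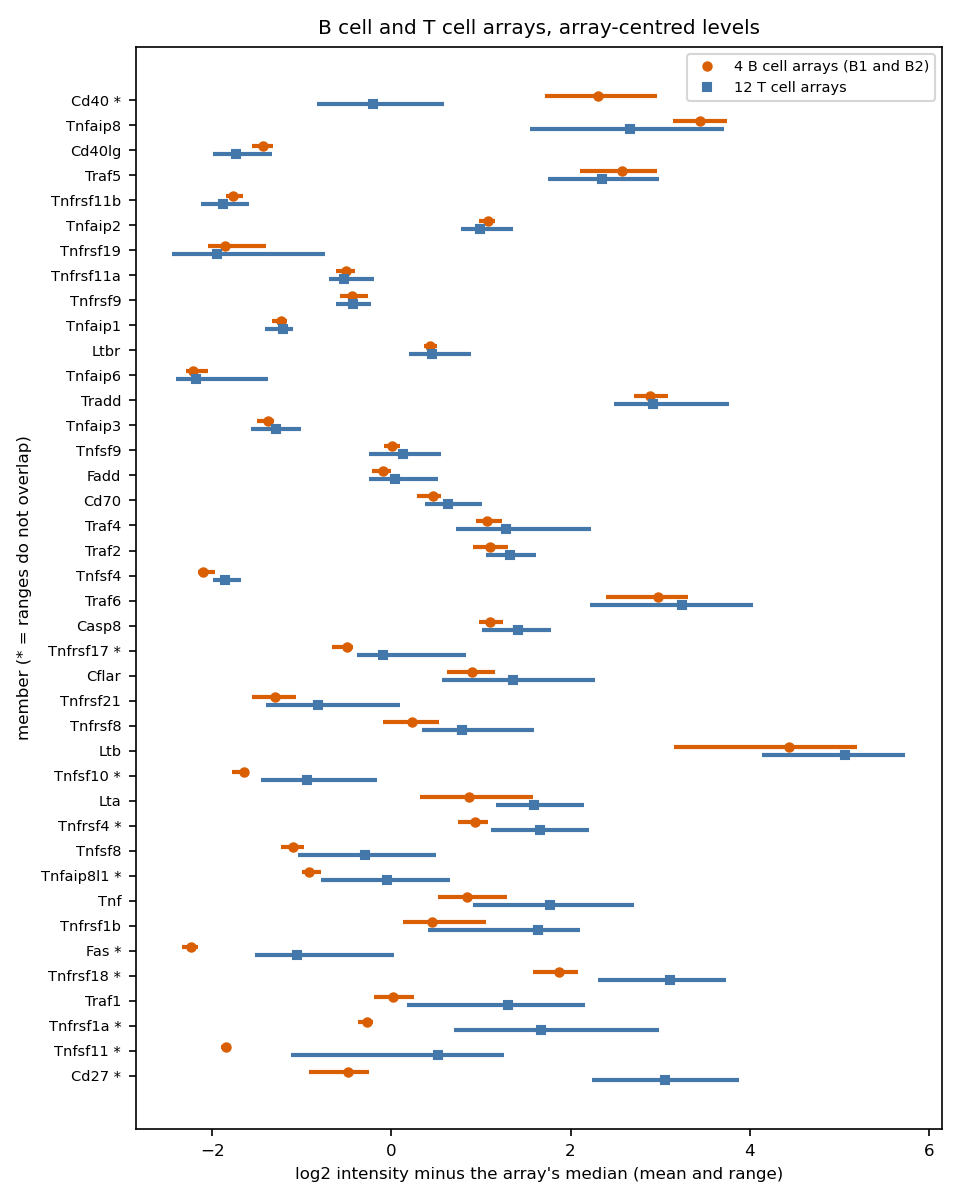
Log2 intensity minus the array's median (horizontal axis) for the 40 members (vertical axis), as mean and range over the 4 B cell arrays and the 12 T cell arrays. Ranges do not overlap for the 10 starred members, of which Cd40 is higher and 9 are lower on B cell arrays.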

How the data were processed

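About 100000 cells were sorted per sample (about 50000 for RTOC) and their RNA was extracted with TRIZOL, per the labels' protocols, then amplified and made into biotinylated cRNA for 16 arrays. The deposited values are intensities on a linear scale, made by the authors with RMA per the submitters' processing notes; the version and the grouping of arrays for normalization are not given in the sources used.

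Of 12488 probe sets, 66 controls were left out and 12422 tested. The platform annotation paired 10833 with 1 symbol, 396 with several (no gene was named from these) and 1193 with none. Two-sided tests on log2 intensities used lmFit and eBayes of limma 3.58.1 (R 4.3.3). The model had 6 group means on 16 arrays, and Benjamini-Hochberg adjustment ran over 12422 probe sets, with calls under 0.05. The fit was tested on simulated data. The study calls its replicates biological without naming separate animals, so a p-value here measures spread among these samples, which may be technical, and 2 or 3 arrays per group limit the precision.

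Deviations from group means of same-numbered arrays correlated at 0.76, 0.65 and 0.67 for the NKT pair and at 0.64, 0.60 and 0.66 for the CD8 pair, above the minimum of 0.1, so those numbers were taken to pair samples; the pairing comes from the data. With 2 arrays per group (0.69), B1 and B2 were not.

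The members, gene lists and tests were chosen with earlier results of these data known. Described one by one were members called in any pair or across pairs, the 10 largest differences per pair, members whose B cell arrays did not overlap the T cell arrays, and the adaptors. Alternatives changed the offset, scaling, filter, variance model, block, covariate, probe set and arrays used. Promoters are RefSeq windows on GRCm38.p6. Of 40 members, 32 had one; the files name no genome build, so no other coordinates were used.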

Additional observations from a re-analysis of the deposited data

Results flagged for a closer look

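In 3 comparisons between pairs the difference of a member was itself different by a limma test, with p-values adjusted over 12422 probe sets. For Traf5 the CD8aaT minus CD8abT difference exceeded the NKT minus CD4T difference by 1.01 (adjusted p = 0.018), higher in 3 of 3 CD8aaT arrays and lower in 3 of 3 NKT arrays than in any array of their partners. For Traf5 the B1 minus B2 difference minus the CD8aaT minus CD8abT difference was -1.27 (adjusted p = 0.0078), with 2 of 2 B1 arrays below B2. For Cd40 the B1 minus B2 difference minus the NKT minus CD4T difference was -1.27 (adjusted p = 0.030), with 2 of 2 B1 arrays below B2 and NKT arrays overlapping those of CD4T. Over 23 alternatives each, the calls were kept in 17, 22 and 17. The first was lost with limma-trend and without CD4T replicate 2 or 3, NKT replicate 2 or 3, or CD8aaT replicate 3 (adjusted p up to 0.072). The Traf5 difference between B cell and CD8 pairs was lost without B2 replicate 2 (adjusted p = 0.060). That of Cd40 was lost without CD4T replicate 2 or 3, NKT replicate 1 or 3, B2 replicate 1 or B1 replicate 2 (adjusted p up to 0.23).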

How the results depend on the processing

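Counts of members called moved with the settings. The filter on the median level left the probe sets of Tnfaip8l1 and Tnfsf11 untested, so their tallies of alternatives do not include it. In NKT minus CD4T, 2 members were called. The count was 1 with probe sets above the median level only or with a minimum difference of 1, 5 with the replicate block and 5 without replicate 1 of every group, and 1 to 4 with single arrays left out. In CD8aaT minus CD8abT, 1 was called. The count was 0 with an offset of 32, above the median level, with the pair's arrays alone or with the beta-actin covariate, 3 with the replicate block, 4 without replicate 1 of every group, and 0 to 2 with single arrays left out. In B1 minus B2, 2 were called. The count was 1 with array centring, above the median level or with limma-trend, 0 with the pair alone or a minimum difference of 1, 4 with the replicate block (Lta and Ltb added, from numbers not taken to pair these samples), and 0 to 3 with single arrays left out. The F test called 1, and its replicate block also paired the B1 and B2 arrays by number. It called 2 with the offset, quantile normalization or centring, 7 with the replicate block, 4 without replicate 1 of every group, and 1 to 3 with single arrays left out. Between B and T cell arrays 10 members did not overlap (9.89% of all probe sets), and 19 without replicate 1 of every group. Fewer arrays make separation easier for any probe set, and the share of all probe sets in that setting was not computed. The Tnfrsf1a difference in NKT was 0.71, and -0.25 on its dimmer probe set. The Tnfsf11 call was kept in 3 of 16 fits that left out 1 array, Cd40 in 9 and Traf5 in B1 in 9, while Tnfrsf18 in NKT was kept in 16 of 16. Over all probe sets the NKT, CD8 and B counts of 202, 23 and 142 became 601, 398 and 353 with the replicate block. They were 218, 9 and 214 with the offset, 199, 20 and 171 with quantile normalization and 203, 17 and 142 with centring. With limma-trend they were 193, 20 and 142, and above the median level 133, 20 and 71. Without replicate 1 of every group the NKT and CD8 counts were 356 and 190. With single arrays left out these were 134 to 242 and 10 to 57. The B count was 118 to 164 with single T cell arrays left out. Counts over all probe sets are not given for the other settings, or for the F test beyond its block. Among the 24 other results, 417 alternative values kept direction and side of the threshold, 54 lost it, 25 gained it, 10 moved and 1 reversed. The causes were not tested.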

Other observations

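The second probe set of Tnfrsf9, the costimulatory receptor 4-1BB, gave a difference of 0.52 ± 0.19 in NKT minus CD4T (limma, adjusted p = 0.40, and 0.013 with the replicate block), where the brighter probe set gave 0.00 ± 0.13. None of the 9 other probe sets of the members was called in any pair without the block. The control probe set of Fas, examined after its values were seen, gave -0.40 ± 0.24 in NKT minus CD4T, -0.07 ± 0.24 in CD8aaT minus CD8abT and -0.67 ± 0.29 in B1 minus B2, with 0 calls (unadjusted p = 0.12, 0.79 and 0.038).

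Several members lie side by side on a chromosome in the RefSeq table. Besides Ltb, Tnf and Lta and the pair Tnfrsf4 and Tnfrsf18, these are Tnfsf9 and Cd70 on chromosome 17, Tnfrsf1b and Tnfrsf8 on chromosome 4, and Cflar and Casp8 on chromosome 1. Cd27, Ltbr and Tnfrsf1a on chromosome 6 have 1 coding gene between each. In NKT minus CD4T, Tnfrsf1b differed by 0.84 and its neighbour Tnfrsf8 by 0.08, and Tnfrsf1a differed by 0.71 and Ltbr by -0.18. In CD8aaT minus CD8abT, Tnfrsf1b differed by 0.55 and Tnfrsf8 by -0.39. The differences between neighbours were not tested.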
